A study of Homo sapiens with 4 samples.

Results

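The genes described here are CHRNB4, ALKAL2, EYA2, FAM181A, C2orf88 and CSRP1. These 6 genes were chosen by name out of 1655 genes that could be tied to the deposited transcripts. They were chosen because they were far higher in the immunoprecipitated RNA of the human ATOH1 lineage than in input RNA. A further reason was that they are not established markers of that lineage. Their level in IP against input is therefore what selected them, so it is given below as a description, and the calls that edgeR's fit over all features made on it are counted without being used as evidence. RUES2, an established human embryonic stem cell line, carried the ATOH1-EGFP-L10a transgene, in which a human ATOH1 enhancer drives an EGFP-tagged ribosomal protein. All cells received SB431542 and LDN-193189 for dual SMAD inhibition, then CHIR99021, BMP7, FGF2 and BDNF, and were collected at DIV28. Translating ribosome affinity purification (TRAP) with GFP antibodies pulled down mRNA on tagged ribosomes, giving 3 IP libraries next to 1 input library. The paper reports separate differentiation experiments for TRAP. Transgenic lines were grown from single clones of 1 parental line, and puromycin was present in the medium. EGFP-L10a marks cells in which the enhancer is or was recently active. The input is taken here as RNA of a culture as a whole, although the paper also labels it unbound. No IP is known to share an experiment with it, so a ratio of IP to input may not compare fractions of the same culture.

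Nicotinic acetylcholine receptors are ligand-gated cation channels built from alpha and beta subunits, and CHRNB4 encodes the beta4 subunit, which pairs with alpha3 in autonomic ganglia and a few brain nuclei. ALKAL2 is a secreted ligand of the receptor tyrosine kinase ALK, EYA2 is a transcriptional coactivator and phosphatase that works with homeodomain proteins of the sine oculis family, C2orf88 encodes a small membrane-bound anchoring protein of protein kinase A, and CSRP1 is a LIM domain protein that binds alpha-actinin and zyxin on actin bundles. ATOH1 itself is a basic helix-loop-helix factor that specifies cerebellar granule cell progenitors and binds E-boxes, DNA words of the form CANNTG.

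The libraries held between 34603230 and 37719839 estimated counts in the IPs versus 41173019 for the input. The label that names the input sample and the tag on the deposited files pointed to different libraries. Every value below takes the library tagged T113 as the input. With that library as input, 48 of 152 genes of high count and large change matched the counts and fold changes of the study's gene table, against 0 with any of the other 3. With the labels' assignment the log2 fold changes of the 6 genes lay between -1.13 for C2orf88 and -0.54 for CSRP1, so the direction of every IP-to-input value rests on the assignment. ATOH1, at 26.1, 36.0 and 33.2 CPM (counts scaled to library size) in the IPs and 0.173 CPM in the tagged input, was the gene that the transgene follows. RPL10A is the gene of the tagged ribosomal protein. It was at 389 ± 18.2 CPM (SD, n = 3) across the IPs versus 168 CPM for the input. Its log2 fold change was 1.21 (edgeR, adjusted p = 0.0328). Reads of the EGFP-L10a transgene may count towards RPL10A, and their part was not tested. GAPDH was at 1512 ± 143 CPM (SD, n = 3) across the IPs versus 2700 CPM for the input (log2 fold change -0.84, edgeR, adjusted p = 0.0571).

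The RefSeq promoter tables (build GRCh38.p14) held 7 windows for 4 of the 6 genes, each from 250 bases before to 50 bases after an annotated start, and each matched 1 place in GRCh37, the build of the transcript models. The windows below are shown because ATOH1 is an E-box binding factor. The sequences run 5′ to 3′ on the strand of the gene, and capitals mark every CANNTG, a word that reads as CANNTG on both strands. CHRNB4 is at chr15:78933503-78933802 (minus strand), ALKAL2 at chr2:288042-288341 (minus strand), CSRP1 at chr1:201476202-201476501 (minus strand, the most upstream of its 3 windows), and the FAM181A windows at chr14:94384990-94385289 and chr14:94393440-94393739 (plus strand).
CHRNB4 promoter: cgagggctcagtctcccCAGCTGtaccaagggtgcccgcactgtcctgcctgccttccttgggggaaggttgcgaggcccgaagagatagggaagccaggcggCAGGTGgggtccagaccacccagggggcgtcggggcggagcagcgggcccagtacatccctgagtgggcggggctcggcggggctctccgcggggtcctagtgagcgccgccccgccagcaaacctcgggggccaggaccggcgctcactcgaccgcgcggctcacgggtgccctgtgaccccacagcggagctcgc
ALKAL2 promoter: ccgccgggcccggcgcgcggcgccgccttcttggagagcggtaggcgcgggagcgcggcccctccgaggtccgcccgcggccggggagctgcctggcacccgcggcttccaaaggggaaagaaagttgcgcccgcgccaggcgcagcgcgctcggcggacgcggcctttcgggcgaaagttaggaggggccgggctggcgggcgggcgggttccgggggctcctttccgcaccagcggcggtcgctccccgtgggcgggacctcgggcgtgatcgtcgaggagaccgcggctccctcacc
CSRP1 promoter: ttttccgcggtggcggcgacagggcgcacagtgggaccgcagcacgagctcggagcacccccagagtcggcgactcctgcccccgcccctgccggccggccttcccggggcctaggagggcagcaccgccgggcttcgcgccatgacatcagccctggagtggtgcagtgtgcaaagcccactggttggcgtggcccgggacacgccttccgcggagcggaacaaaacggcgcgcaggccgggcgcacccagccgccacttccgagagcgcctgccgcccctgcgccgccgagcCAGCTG
FAM181A upstream promoter: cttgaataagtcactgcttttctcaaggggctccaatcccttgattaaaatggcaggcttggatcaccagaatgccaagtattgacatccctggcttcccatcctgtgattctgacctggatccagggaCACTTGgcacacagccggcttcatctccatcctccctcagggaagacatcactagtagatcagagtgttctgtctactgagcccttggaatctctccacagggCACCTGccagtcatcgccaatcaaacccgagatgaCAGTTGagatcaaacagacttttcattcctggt
FAM181A downstream promoter: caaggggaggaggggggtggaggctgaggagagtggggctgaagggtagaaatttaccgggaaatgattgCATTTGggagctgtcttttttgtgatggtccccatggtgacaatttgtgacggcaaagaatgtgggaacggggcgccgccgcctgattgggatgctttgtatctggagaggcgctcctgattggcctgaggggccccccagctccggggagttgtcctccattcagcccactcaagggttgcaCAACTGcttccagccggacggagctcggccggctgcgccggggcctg

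CANNTG was in 6 of the 7 windows and in 68.7% of all 35116 promoter windows in the table. ALKAL2 was the gene with none, and its window had the highest GC content, 77.7%, against a median of 58.7% over all windows. CHRNB4 held 2 matches, which begin at positions -233 and -147 from the annotated start. CSRP1 held 1 in the window shown, at position 44, and 3 and 4 in its other windows. The 2 upstream CSRP1 windows overlap, and both contain that same CAGCTG. FAM181A held 3 matches upstream and 2 downstream. The palindrome CAGCTG, which is a subset of CANNTG, was in 4 windows, all of CHRNB4 or CSRP1, and in 17.9% of all windows. GGGCGG, the GC-box word, counted on both strands, was in 3 windows, with 4 copies in ALKAL2, 3 in CHRNB4 and 2 in the upstream CSRP1 window, and in 45.0% of all windows. A match describes the letters of a window and is not evidence of binding.

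CSRP1 had the highest level of the 6 genes. It stood at 65.1, 73.2 and 60.1 CPM in IP replicates 1, 2 and 3 and at 1.43 CPM in the input, where it had 58 reads. The mean ratio of IP to input was 46.1 ± 4.62 (SD, n = 3), with all 3 IPs far above the input and within a factor of 1.22 of each other. The 95% Poisson interval of the 58 input reads puts that mean ratio between 35.7 and 60.8. These intervals cover counting error only, since the reads carry no molecular identifiers, and all 3 ratios share 1 input value. The fitted log2 fold change was 5.52 (standard error 0.26, derived here and below from edgeR's F value). CSRP1 lies at chr1:201452658-201478584 on the minus strand of GRCh37.

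CHRNB4, the beta4 receptor subunit gene, stood at 23.7, 24.7 and 18.0 CPM in the IPs versus 0.521 CPM for the input, where it had 21.1 estimated reads. The mean ratio was 42.5 ± 6.85 (SD, n = 3), with a counting interval of 27.8 to 68.5. IP replicates 1 and 2 lay close together and IP replicate 3 was the lowest. Its fitted log2 fold change was 5.40 (standard error 0.44). The gene is annotated at chr15:78916453-79020096 on the minus strand.

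ALKAL2, the ALK ligand gene, stood at 23.4, 16.3 and 16.5 CPM in the IPs against 0.420 CPM in the input, where it had 17 reads. The ratio was 44.6 ± 9.60 (SD, n = 3), with a counting interval of 27.8 to 76.5. Here IP replicate 1 was the high library, 1.44 times the lowest, and the other two were nearly equal. The fitted log2 fold change was 5.47 (standard error 0.52). The gene is at chr2:279558-288851 on the minus strand.

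C2orf88, the protein kinase A anchoring gene, varied most among the IPs, from 21.7 CPM in replicate 1 through 17.3 CPM in replicate 3 to 12.1 CPM in replicate 2. Its input value was 0.346 CPM from 14 reads, which gave a mean ratio of 49.2 ± 13.8 (SD, n = 3) and a counting interval of 29.3 to 90.0. The lowest IP value was still far above the input. The fitted log2 fold change was 5.61 (standard error 0.63). The gene is at chr2:190744335-191068210 on the plus strand.

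EYA2, the coactivator gene, had the largest ratio and the least certain one. It stood at 11.8, 8.34 and 7.98 CPM in the IPs versus 0.0988 CPM for the input, from 4 reads. The mean ratio of 94.9 ± 21.4 (SD, n = 3) came with a counting interval of 37.1 to 348. That interval overlapped those of all 5 other genes. The fitted log2 fold change was 6.52 (standard error 0.73), or 5.95 with a prior count of 2 in place of the default. The gene is at chr20:45523263-45817492 on the plus strand.

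FAM181A had the lowest ratio of the 6 genes. Its CPM were 9.24, 7.21 and 10.1 in the IPs versus 0.272 for the input, from 11 reads. The mean ratio was 32.6 ± 5.49 (SD, n = 3), with a counting interval of 18.2 to 65.3. It was the gene that stood highest in IP replicate 3, whereas 3 of the 6 genes stood highest in replicate 1 and 2 in replicate 2. The fitted log2 fold change was 5.01 (standard error 0.64). The gene is at chr14:94385240-94395954 on the plus strand.

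**Figure D1:**
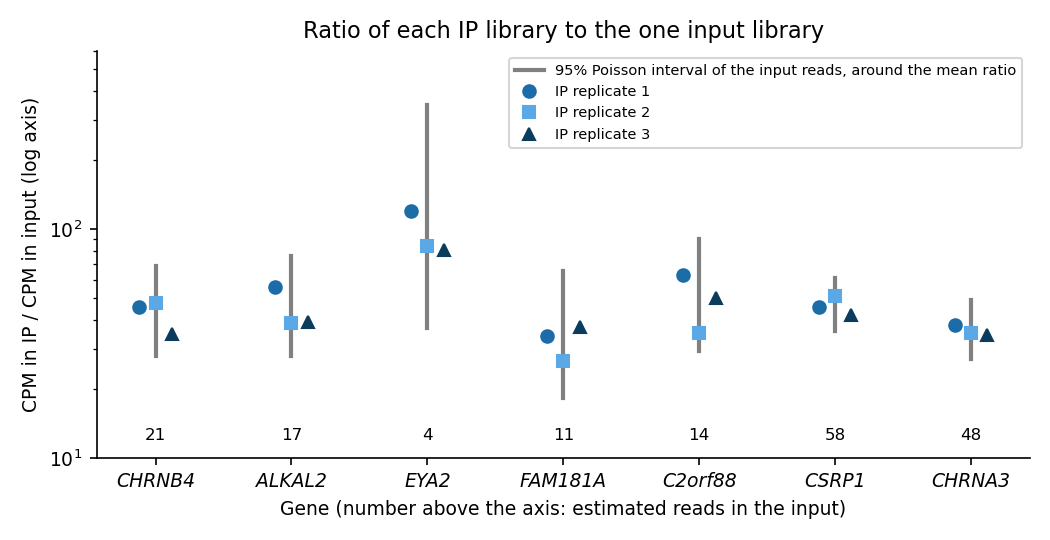
Ratio of CPM in each IP library to CPM in the input (log axis) for the 6 genes and CHRNA3, with the 95% Poisson interval of the input reads around the mean ratio. All ratios lie between 26.5 and 119, and the interval is widest for EYA2, which had 4 input reads.

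Across the 6 genes the input held 125 reads in all. In a bulk sample, a low input value from few cells that express a gene cannot be told apart from little RNA per cell. All 6 genes passed edgeR's test as higher in IP, beside 2.31% of all 43810 genes and transcripts tested, and nothing is read from that count because the same values chose the genes. A further 1.49% of the features were lower. Without any 1 of the IPs, or with limma-voom, 0 features passed. All 3 IPs were above the input for 6 of 6 genes and for 29.3% of the features tested. The median log2 fold change was 5.50 for the 6 genes and 0.10 for all features. A log2 fold change at least as high as that of FAM181A, the lowest of the 6, was found in 5049 of the 43810 features tested, in 242 of the 13257 features whose mean IP level was at or above that of FAM181A (1.83%), and in 32 of the 1655 joined genes, the 6 genes included each time. Genes without an input read could not be joined, so the last count leaves them out.

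In TPM (abundance scaled to transcript length and library size, so that genes can be compared), the order in the IPs was CSRP1 at 44.7 ± 5.65, ALKAL2 at 27.0 ± 6.82, CHRNB4 at 12.5 ± 2.25, FAM181A at 7.89 ± 1.18, EYA2 at 5.26 ± 1.67 and C2orf88 at 5.17 ± 1.57 (mean ± SD, n = 3). The ranges of the first 3 genes did not overlap with those of the next gene in the order. FAM181A and EYA2 overlapped in range, although FAM181A was above EYA2 in each of the 3 IPs. EYA2 and C2orf88 did not differ beyond their spread, and EYA2 was the higher in 2 of 3 IPs. CSRP1 thus lay at the level of ATOH1, which had 44.1 ± 6.42 TPM (SD, n = 3). In the input the 6 genes ranged from 0.0708 TPM for EYA2 to 1.16 TPM for CSRP1.

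**Figure D2:**
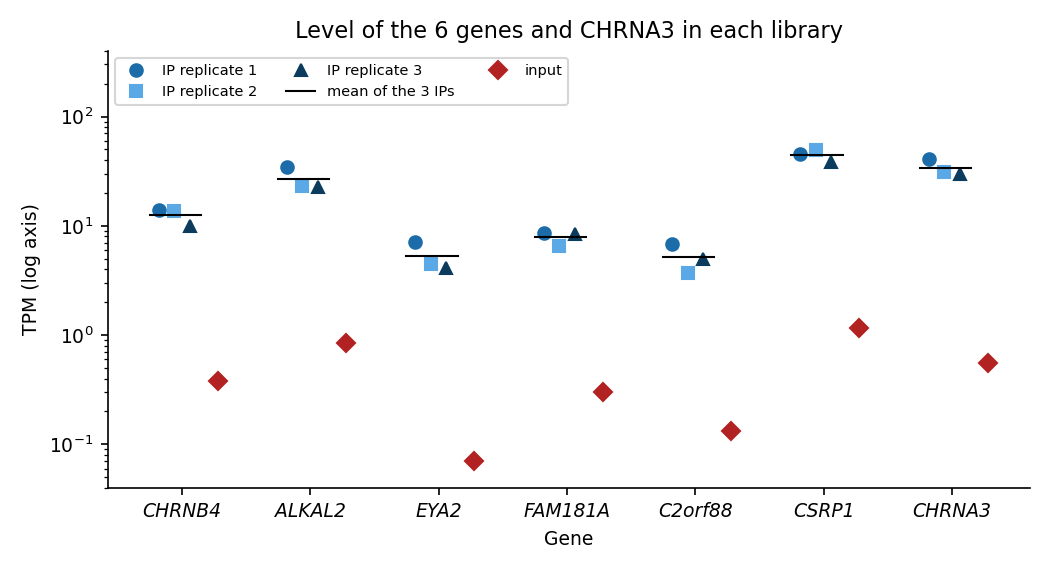
TPM (log axis) of the 6 genes and of CHRNA3 in the 3 IP libraries and the input, with the mean of the IPs as a line. CSRP1 is the highest at 38.6 to 49.8 TPM in the IPs, and every input value is at or below 1.16 TPM.

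The coefficient of variation over the 3 IPs was 10.0% for CSRP1 and 28.1% for C2orf88, the ends of the range, with a median of 19.2% over the 6 genes. The 743 joined genes with IP levels in the same range, 8.85 to 66.1 CPM, had a median of 12.5%. Summed over the 6 genes, the IPs held 155, 142 and 130 CPM and the input 3.09 CPM.

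The transcripts behind each gene differed in how evenly they were used. CHRNB4 rested mainly on a transcript of 2448 nucleotides, with 85.9%, 90.3% and 82.9% of the gene's estimated reads in the IPs and 75.2% in the input. ALKAL2 split between transcripts of 1398 and 731 nucleotides, with 67.4% ± 1.3 (SD, n = 3) on the longer one in the IPs and 55.5% in the input. EYA2 had 70.3% ± 0.3 (SD, n = 3) of its reads on a transcript of 2248 nucleotides and 27.2% ± 4.1 on one of 2702 nucleotides. These shares were close between the 3 IPs. C2orf88 had 87.5% ± 2.9 (SD, n = 3) on a transcript of 3991 nucleotides, and all 14 input reads were assigned to it. The other transcript had a count of 0 in the input. That allows a share of up to 21.4% if every read could tell the transcripts apart, and more if not.

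FAM181A was the exception among the IPs. Its transcript of 1468 nucleotides took 65.4%, 52.1% and 17.5% of the reads in replicates 1, 2 and 3, while that of 1522 nucleotides took 25.1%, 40.1% and 70.3%. In replicate 3 the balance was thus turned against replicate 1, on gene totals of 331 and 374 reads. The input assigned 7.95 of 11 reads to the shorter one and 0 to the other. That 0 allows a share of up to 27.3% if every read could tell the transcripts apart, and more if not. Which of the FAM181A promoters shown above gives which transcript was not determined.

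CSRP1 showed the widest gap between IP and input in transcript use. A transcript of 1918 nucleotides held 63.3%, 53.6% and 51.6% of the CSRP1 reads in the IPs, with 1476, 1449 and 1147 reads. It held 0 of the 58 input reads, which allows a share of up to 5.17% if every read could tell the transcripts apart, and more if not. A transcript of 1956 nucleotides held 36.6%, 46.0% and 48.0% in the IPs, versus 94.2% in the input. Salmon divides reads between overlapping transcripts by a statistical model, and the part of that division in the 0 was not tested. The sum over both transcripts does not depend on it.

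**Figure D3:**
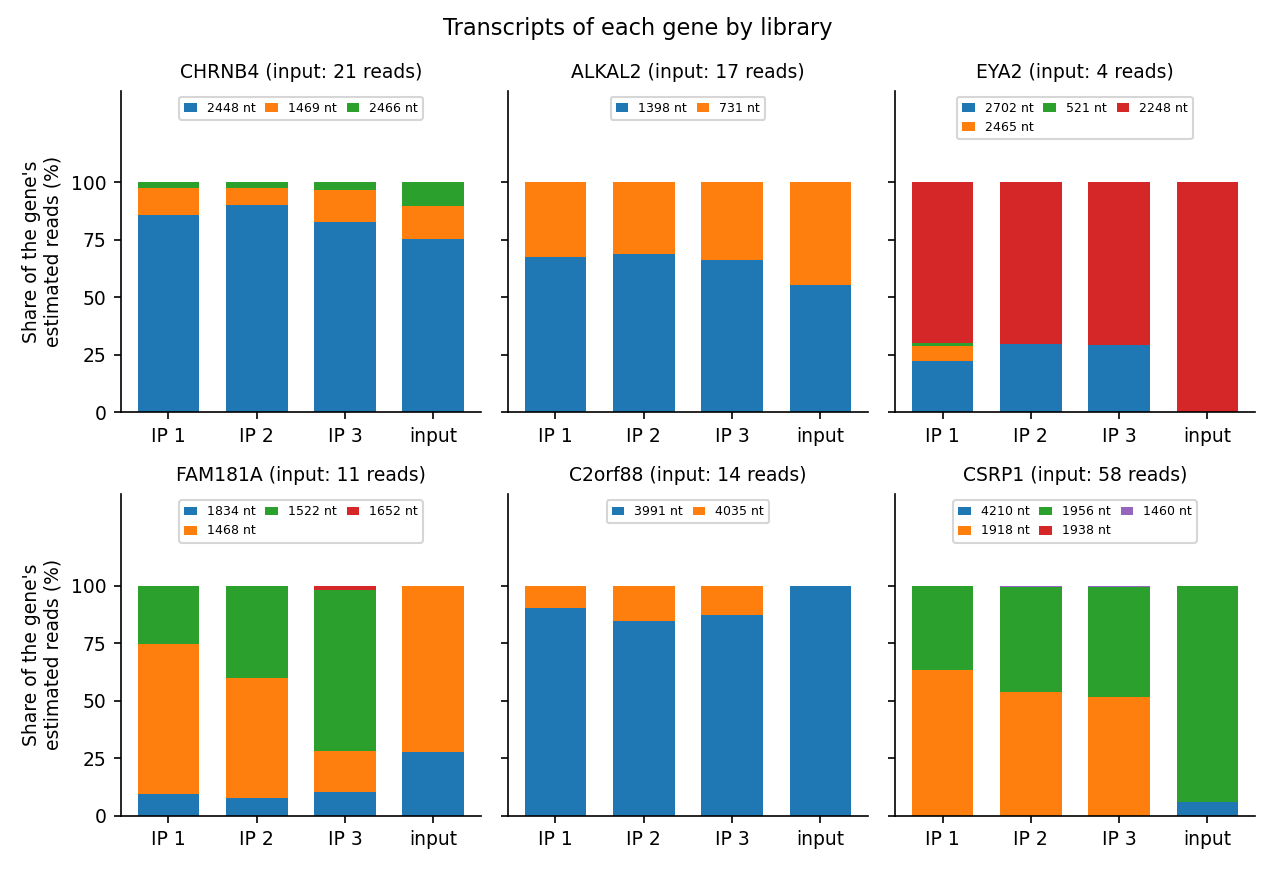
Share of each gene's estimated reads (%) that falls on each transcript, named by its length in nucleotides, in the 3 IPs and the input. The CSRP1 transcript of 1918 nucleotides is at 51.6 to 63.3% in the IPs versus 0 for the input, and the 2 main FAM181A transcripts trade places between IP replicates.

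Reads were taken without regard to strand in this comparison, as the cDNA kit does not keep it, so exons shared with a gene on the other strand cannot be told apart. Such overlap covered 10.7% of the exonic bases of FAM181A, through FAM181A-AS1, 9.21% of ALKAL2, 3.31% of CHRNB4 and 1.67% of CSRP1, through CSRP1-AS1. EYA2 and C2orf88 had none.

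Among the 15 other nicotinic receptor subunit genes listed, 1 was joined, CHRNA3, which encodes the alpha3 subunit that pairs with beta4. CHRNA3 stood at 45.0, 41.8 and 41.0 CPM in the IPs versus 1.19 CPM for the input, from 48 reads, and its log2 fold change was 5.16 (standard error 0.25, edgeR adjusted p = 0.0161). All 3 IPs lay close together and far above the input. CHRNA3 is the neighbour of CHRNB4, at chr15:78885394-78913637 on the same strand, with 2.82 kb between the annotated genes. The ratio of CHRNA3 to CHRNB4 counts was 1.90, 1.69 and 2.27 in the IPs versus 2.28 for the input, so the input proportion was close to that of IP replicate 3, although it rests on 48 and 21.1 reads. In TPM, CHRNA3 was at 33.9 ± 6.28 (SD, n = 3) across the IPs versus 0.553 for the input. On that scale its log2 ratio was 5.94, higher than by counts, and a transcript of 332 nucleotides held 3.2% ± 0.6 (SD, n = 3) of its reads in the IPs versus 0 for the input. CHRNA3 shares 4.16% of its exonic bases with CHRNA5 on the opposite strand. CHRNA3 was tied to its transcripts with a looser tolerance on the mean count, chosen after a first search had missed it. The other 14 subunits were not analysed here.

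Of the other joined genes of the members' pathways, CHRNA3 was the 1 with a log2 fold change at least as high as the lowest of the 6 genes. The looser tolerance was tried for CHRNA3 alone, so its place among the listed genes rests on that choice. Over 7 lists with 112 genes, 21 were joined, CHRNA3 included, of which 8 rose, 8 fell and 5 did not pass edgeR's test in IP against input. The joined genes come from the part of the study's table with the smallest p-values, so their share of calls is no independent evidence: 29.3% of all joined genes were higher and 27.0% lower. The median log2 fold change of the 21 genes was 0.97, against 0.80 for all joined genes. None of the calls on listed genes given here was kept when any 1 IP was left out or with limma-voom.

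Of the ALK list of 16 genes, 6 were joined, with 2 higher, 2 lower and 2 past neither side. MDK, which encodes the growth factor midkine, stood at 1643, 1587 and 1559 CPM in the IPs versus 419 CPM for the input (log2 fold change 1.93, edgeR adjusted p = 0.0190). SHC3, a neuronal adaptor of receptor tyrosine kinases, rose by 1.35 on the log2 scale (edgeR adjusted p = 0.0424). SHC1, its broadly expressed relative, fell by 0.80 (edgeR adjusted p = 0.0425), and PLCG1, phospholipase C gamma 1, fell by 1.98 (edgeR adjusted p = 0.0471). IRS1 and STAT3 had log2 fold changes of 1.64 and -1.10 (edgeR adjusted p = 0.0589 and 0.0634). ALK, LTK and ALKAL1 were not analysed here. Of the 10 helpers of nicotinic receptors and cholinergic genes, LY6H and SLC18A3, the vesicular acetylcholine transporter, were joined. Their log2 fold changes were 1.89 and 2.49, and neither passed (edgeR adjusted p = 0.0598 and 0.0845).

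The list of 11 EYA, DACH and sine oculis homeobox genes had 2 joined members. EYA1, the close relative of EYA2, moved the opposite way to it, at 35.7, 33.4 and 34.6 CPM in the IPs versus 74.8 CPM for the input (log2 fold change -1.11, edgeR adjusted p = 0.0396). DACH1, a nuclear cofactor of EYA proteins, stood at 72.0, 85.5 and 62.6 CPM in the IPs versus 18.9 CPM for the input (log2 fold change 1.95, edgeR adjusted p = 0.0410).

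Of the 24 protein kinase A genes, 5 were joined. PRKAR1A, the type I regulatory subunit that the C2orf88 protein is known to bind, fell by 1.38 on the log2 scale (edgeR adjusted p = 0.0291), from 726 CPM in the input to 279 ± 19.7 CPM (SD, n = 3) across the IPs. The scaffold genes AKAP12 and AKAP13 had log2 fold changes of -1.93 and -1.63 (edgeR adjusted p = 0.0221 and 0.0410). PKIB, a protein kinase A inhibitor, rose by 1.42 (edgeR adjusted p = 0.0358), and WASF1, an actin regulator that also anchors the kinase, by 0.97 (edgeR adjusted p = 0.0394). Of the 31 LIM domain and actin-bundling genes, 5 were joined. PDLIM2 and TAGLN rose by 1.25 and 1.07, FHL1 and ACTN1, which encodes an alpha-actinin, fell, with log2 fold changes of -1.26 and -1.24 (edgeR adjusted p = 0.0358, 0.0480, 0.0276 and 0.0366), and PDLIM3 had a log2 fold change of -1.71 (edgeR adjusted p = 0.0751). None of the 5 FAM181 family and TEAD genes was joined.

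**Figure D4:**
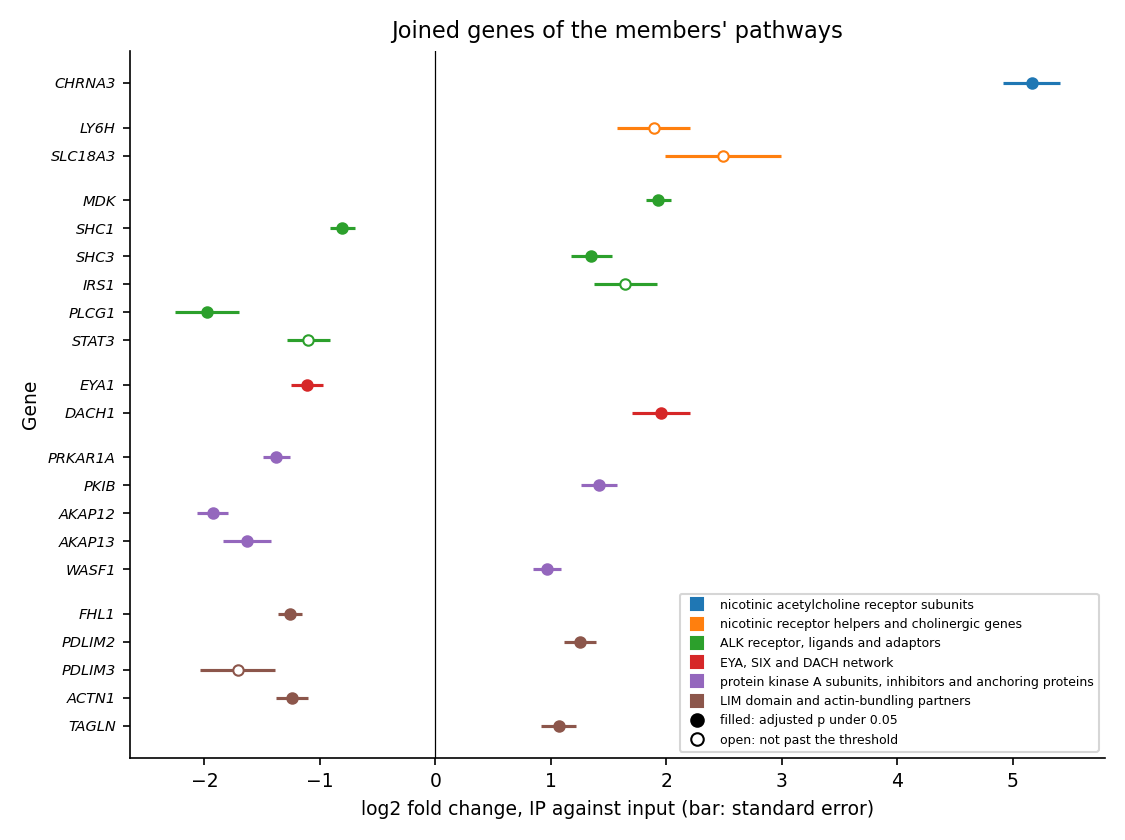
Log2 fold change of IP against input, with its standard error, for the 21 joined genes of the members' pathways, coloured by list, with open points for genes that did not pass edgeR's test. CHRNA3 stands alone at 5.16, and the other 20 lie between -1.98 and 2.49.

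Annotated neighbours of the 6 genes within 500 kb were described in the same way. CHRNB4, EYA2, FAM181A and CSRP1 had joined neighbours, and ALKAL2 and C2orf88 had none. Apart from CHRNA3 there were 6 of them, of which 3 rose, 1 fell and 2 did not pass. CRABP1, a retinoic acid binding protein gene 276 kb from CHRNB4, rose by 4.21 on the log2 scale (edgeR adjusted p = 0.0161). ADAMTS7, a metalloprotease gene 31.5 kb away on the other side, fell by 0.97 (edgeR adjusted p = 0.0489). TNNI1, the slow skeletal muscle troponin I gene 53.7 kb from CSRP1, was at 145 ± 25.4 CPM (SD, n = 3) across the IPs versus 21.6 CPM for the input, a rise of 2.74 (edgeR adjusted p = 0.0319). LMOD1, a smooth muscle leiomodin gene 387 kb from CSRP1, had a log2 fold change of 2.31 and did not pass (edgeR adjusted p = 0.0901). IFI27L2, 198 kb from FAM181A, rose by 1.36 (edgeR adjusted p = 0.0367), and ELMO2, 462 kb from EYA2, had -1.16 (edgeR adjusted p = 0.0635).

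For each of the 6 genes, the joined gene whose pattern was most like it was taken as that with the smallest root mean square difference in log2(CPM + 0.5), centred over the 4 libraries. CSRP1 was closest to IGFBPL1, at 0.06, which stood at 332, 365 and 292 CPM in the IPs versus 8.31 CPM for the input. CHRNB4 was closest to CNTN2, the gene of the adhesion molecule TAG1, at 0.08. C2orf88 was closest to WNT10B, which encodes a secreted WNT ligand, at 0.09, and ALKAL2 to WNT4, another WNT ligand, at 0.10. EYA2 was closest to TPPP3, a tubulin binding protein gene, at 0.09, and FAM181A to CYP26A1, a retinoic acid degrading enzyme gene, at 0.10. In IP replicate 1 WNT4 stood at 57.0 CPM against 41.4 and 34.8 CPM in the other 2, and WNT10B was also highest there, at 30.8 CPM against 18.5 and 22.6 CPM, as were ALKAL2 and C2orf88. With 4 libraries and 1 input, this measure holds mainly the step from input to IP. The added 0.5 CPM lies above the input level of ALKAL2, EYA2, FAM181A and C2orf88, so it shrinks that step for them. Each most alike gene had a lower fitted log2 fold change than its member. EYA2 was at 6.52 against 4.32 for TPPP3, and FAM181A at 5.01 against 3.57 for CYP26A1. CHRNB4 was at 5.40 against 4.61 for CNTN2, and CSRP1 at 5.52 against 5.31 for IGFBPL1.

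Markers of the cells that the culture could hold were counted in the same fit. The lists were chosen with earlier results of these data known, so the counts are no test of cell identity. Of all joined genes, 29.3% were higher and 27.0% lower. Of the 12 ATOH1 lineage genes, 8 were joined and 7 were higher in the IPs, with summed levels of 1414 to 1962 CPM in the IPs versus 83.7 CPM for the input. Log2 fold changes were 7.49 for ATOH1, 6.82 for OLIG3, 6.32 for NHLH1 and 5.87 for HES6. BARHL1, INSM1 and MSX1 had 5.51, 5.12 and 2.72 (edgeR adjusted p for the 7 genes from 0.0161 to 0.0425). The 6 genes lay between 5.01 and 6.52, so ATOH1 and OLIG3 were above all of them and MSX1 was below. LMX1A (2.37, edgeR adjusted p = 0.172) did not pass. PAX6, which the paper uses as a granule cell progenitor marker, was not analysed here, nor were ZIC1, MEIS1 and BARHL2. All 9 young neuron genes were joined and higher, with 1746 to 2019 CPM in the IPs versus 525 CPM for the input. CNTN2 rose by 4.61 (edgeR adjusted p = 0.0236) and TUBB3 by 1.41 (edgeR adjusted p = 0.0364).

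CHRNB4, CHRNA3 and PRPH are also genes of peripheral neurons, and CSRP1 is also a gene of smooth muscle. Of the 15 neural crest and peripheral neuron markers, 3 were joined, with a summed 216 to 258 CPM in the IPs versus 392 CPM for the input. SNAI2 made up most of that sum, at a mean of 203 CPM across the IPs versus 388 CPM for the input. PRPH, a peripheral intermediate filament gene, rose by 2.66 (edgeR adjusted p = 0.0498), SNAI2 fell by 0.94 (edgeR adjusted p = 0.0394), and ISL1 had 3.52 (edgeR adjusted p = 0.0886). SOX10, a defining gene of neural crest cells, was not analysed here. Of the 12 mesenchyme and smooth muscle markers, 4 were joined, with a summed 1796 to 1911 CPM in the IPs versus 3982 CPM for the input. COL1A1 and TM4SF1 fell, with log2 fold changes of -1.46 and -4.17 (edgeR adjusted p = 0.0291 and 0.0161), DCN had -1.42 (edgeR adjusted p = 0.0709), and TAGLN rose, as given above.

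Of the 10 endothelial markers, 2 were joined, with a summed 78.9 to 98.1 CPM in the IPs versus 692 CPM for the input. ADGRL4 made up most of that sum, at a mean of 66.5 CPM across the IPs versus 691 CPM for the input. ADGRL4 fell by 3.38 (edgeR adjusted p = 0.0161), whereas CLDN5 rose by 5.12 (edgeR adjusted p = 0.0498), from 0.618 CPM to 29.1, 22.9 and 12.6 CPM. Of the 10 astroglia and neural stem cell markers, 4 were joined, with a summed 265 to 276 CPM in the IPs versus 1115 CPM for the input. TNC made up most of that sum, at a mean of 179 CPM across the IPs versus 1058 CPM for the input. TNC fell by 2.57 (edgeR adjusted p = 0.0161), SOX2 rose by 3.49 (edgeR adjusted p = 0.0291), and S100B and FABP7 had -1.59 and 1.75 (edgeR adjusted p = 0.0748 and 0.0709). Of the 6 pluripotency markers, LIN28A was joined, at 3.01 (edgeR adjusted p = 0.0619). No joined marker was at 0 in any library. For the input this was fixed in advance, because only genes with input reads could be joined. The part of other cell types in the levels of the 6 genes was not tested.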

How the data were processed

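RNA-seq libraries were 3 IPs and 1 input. The authors quantified 75 bp single reads with Salmon 0.8.2 against UCSC known gene models of hg19 (GRCh37) and deposited 1 estimated count and 1 TPM for each of 69548 transcripts. Runs of 1 to 20 adjacent transcripts were tied to a symbol where their mean count (within 2%) and log2 fold change (within 1e-05) matched the authors' gene table, of which 1998 genes were available. Only runs with reads in the input were searched. The table's comparison columns served only this join. Of 1698 matches, 1654 were unique and used, plus CHRNA3 (mean count within 15%, a tolerance tried for that gene alone). After the table's fold changes were shifted at random, 28 genes matched within the 2% tolerance. The 15% tolerance used for CHRNA3 was not checked in this way. Estimated counts were rounded, and edgeR 4.0.16 (R 4.3.3) was run with TMM, its default filter and the quasi-likelihood test on 43810 joined genes and single transcripts, with Benjamini-Hochberg adjustment and a threshold of 0.05. This replaces gene counts, since most transcripts could not be named. Each standard error is the absolute log2 fold change over the square root of the test's F value. It is approximate and was not estimated directly by the fit. Simulated counts were run through the fit, with a spread below the common coefficient of variation over all features here, 0.946. That run does not give the error rate for these data. Alternatives were median-ratio scaling, DESeq2 1.42.0, limma-voom (limma 3.58.1), no filter, at least 50 counts in 2 libraries, a length offset, a prior count of 2, TPM, each transcript on its own, leaving out each IP and the labels' assignment.

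Genes named were the 6 members, joined genes of each list by abundance, ATOH1, GAPDH, RPL10A and the most alike gene of each member. Members and lists were chosen with earlier results of these data known. IP and input follow the file tags. The paper reports TRAP on 3 independent differentiation experiments, but the labels and tags do not tie each IP to one. If the 3 IPs are these, their spread is that between experiments. The input has no replicate and its spread was not measured. All 3 IPs carry the tag T106 and the input the tag T113. A difference between the tags therefore cannot be told apart from IP against input, and no IP is known to share an experiment with the input.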

Additional observations from a re-analysis of the deposited data

How the results depend on the processing

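The calls depended on the processing far more than the fold changes did. The main count of 1662 features called in IP against input became 9776 with DESeq2, 3018 with at least 50 counts in 2 libraries, 0 with limma-voom (3791 and 6407 at an unadjusted p under 0.05, higher and lower) and 0 with the labels' assignment (1033 and 229 unadjusted), and ranged from 0 to 0 when each IP was left out in turn. The 40 joined list genes called, and the 6 members called, likewise became 0 with limma-voom, 0 with the labels' assignment and 0 to 0 without each IP. The alternatives with 2 IPs have fewer samples, and for the others the cause was not tested. Without an IP replicate the log2 fold changes of the 6 genes stayed between 4.89 for FAM181A and 6.62 for EYA2. They had the same sign under every alternative except the labels' assignment, where they were -0.72 for CHRNB4, -1.08 for ALKAL2, -1.11 for EYA2, -0.66 for FAM181A, -1.13 for C2orf88 and -0.54 for CSRP1. With each transcript on its own, the most abundant one gave 13.4 for CSRP1 and 10.3 for FAM181A, values that rest on the prior count because that transcript had no input read. On that setting 5 of the 6 genes passed edgeR's test, and FAM181A did not (adjusted p = 0.0747). By TPM the log2 ratios were 4.72 to 6.22. Median-ratio scaling, no filter and a length offset kept the call counts within 1.5 times. The single input of 125 reads over the 6 genes sets the limit on every ratio. No paired analysis was possible because the groups share fewer than 2 replicate numbers.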
